A study of Mus musculus with 4 samples.

Results

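The 46 genes described here act in mitosis. They encode the G2/M cyclins with their kinase, the kinases and ubiquitin ligase factors that drive and end mitosis, proteins of the kinetochore and the spindle, and the machinery of cytokinesis. The members were taken as the rows of the deposited count and TPM (transcripts-per-million) matrices whose gene symbol was on a list of mitosis and spindle genes, and 46 of the 55141 genes with both values were found in this way. RNA was sequenced as tags from the 3′ ends of transcripts in 4 cultures of articular chondrocytes, the cells of joint cartilage, which were taken from the femoral heads of mice of 3 weeks of age, with 1 library per culture. The first library was labelled wild type and the second came from miR-26a -/- mice (miR-26a KO), both of strain C57BL/6. The third also came from miR-26a -/- chondrocytes, of strain C57BL6/J by its label, which had been transfected with a double-stranded miR-26a mimic after isolation. The fourth came from C57BL/6 mice that carried Col2a1-cre together with miR-23a/b clusters flox/flox alleles (Cart-miR-23clus KO), in which a Cre driven by the type II collagen promoter removes both miR-23a/b clusters from cartilage cells. The transfection protocol names a negative control siRNA, and it is not stated whether the library without mimic received it.

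Mitosis genes form a transcriptional programme. In resting cells their promoters are held silent by the DREAM complex, whose MuvB core binds the cell cycle homology region (CHR), and in G2 and M phase the same core, joined by B-Myb and FOXM1, activates them together with NF-Y, which binds CCAAT boxes. Their mRNAs are therefore widely read as a measure of cycling cells. Chondrocytes of mature joint cartilage rarely divide, whereas chondrocytes released from the matrix and grown in serum enter the cycle again.

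The miRNAs that differ between the libraries act on target mRNAs mainly through their seed, bases 2 to 8 of the mature strand. The mature sequences are shown because the seeds define the sites sought in the members. The seed is in capitals, the mimic is given as in its label, and the others are from RefSeq (GRCm38.p6). miR-27a-3p and miR-27b-3p share a seed, and the mimic has the sequence of miR-26a-5p. Another miRNA of the deleted clusters, miR-23b-3p, is named only.
miR-26a mimic, sense strand: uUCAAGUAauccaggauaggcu
mmu-miR-26a-5p: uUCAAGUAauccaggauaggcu
mmu-miR-23a-3p: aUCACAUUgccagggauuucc
mmu-miR-27a-3p: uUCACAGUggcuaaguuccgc
mmu-miR-27b-3p: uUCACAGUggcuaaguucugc
mmu-miR-24-3p: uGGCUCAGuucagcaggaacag

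A match to the miR-26a seed was found in the 3′ UTR of 3 members, Cks2, Mad2l1 and Zwint. They are shown with the flanking bases on GRCm38, in the transcript's direction and with the match in capitals, together with the Zwint matches to miR-27 and miR-24, since Zwint had the widest gap between the knockouts.
Zwint, miR-26a match, chr10:72669632-72669658, plus strand: ctttcattttTACTTGActattgtttt
Zwint, miR-27 match, chr10:72669260-72669286, plus strand: cctgccaaggACTGTGAgggctagata
Zwint, miR-24 match, chr10:72668194-72668220, plus strand: agcgtgaggaCTGAGCCcagctaacag
Zwint, miR-24 match, chr10:72669418-72669444, plus strand: tgataattatCTGAGCCcccaaacttc
Cks2, miR-26a match, chr13:51650450-51650476, plus strand: attcagtgaaTACTTGAaaagtgtaca
Mad2l1, miR-26a match, chr6:66543198-66543224, plus strand: tgcttctactTACTTGAcagcatatct
Mad2l1, miR-26a match, chr6:66547079-66547105, plus strand: aactataccaTACTTGAtttaaacata

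Promoters of 5 members are shown as examples of the motif contents found among the mitosis genes. Each is a RefSeq window (GRCm38.p6) of 250 bases before to 50 bases after the start that RefSeq gives, with CCAAT boxes and CHR motifs on either strand in capitals. The Top2a promoter holds 6 CCAAT boxes and 4 CHR motifs, and the Plk1 promoter holds 1 of each. The Ndc80 promoter holds 1 CHR and 0 CCAAT boxes, the Zwint promoter 2 CCAAT boxes and 0 CHR, and the Tacc3 promoter neither.
Top2a promoter, chr11:99024140-99024439, minus strand: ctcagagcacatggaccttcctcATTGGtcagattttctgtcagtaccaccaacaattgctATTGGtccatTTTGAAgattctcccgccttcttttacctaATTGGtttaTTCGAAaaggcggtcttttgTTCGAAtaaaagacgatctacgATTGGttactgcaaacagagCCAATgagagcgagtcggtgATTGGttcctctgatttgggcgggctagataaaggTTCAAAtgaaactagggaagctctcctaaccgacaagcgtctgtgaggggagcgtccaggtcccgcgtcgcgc
Plk1 promoter, chr7:122159185-122159484, plus strand: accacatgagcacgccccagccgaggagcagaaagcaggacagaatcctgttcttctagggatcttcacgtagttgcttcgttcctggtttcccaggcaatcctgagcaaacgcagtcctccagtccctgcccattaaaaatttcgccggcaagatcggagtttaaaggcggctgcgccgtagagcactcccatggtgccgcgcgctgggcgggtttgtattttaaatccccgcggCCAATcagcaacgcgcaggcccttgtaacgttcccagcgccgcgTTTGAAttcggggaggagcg
Ndc80 promoter, chr17:71526808-71527107, minus strand: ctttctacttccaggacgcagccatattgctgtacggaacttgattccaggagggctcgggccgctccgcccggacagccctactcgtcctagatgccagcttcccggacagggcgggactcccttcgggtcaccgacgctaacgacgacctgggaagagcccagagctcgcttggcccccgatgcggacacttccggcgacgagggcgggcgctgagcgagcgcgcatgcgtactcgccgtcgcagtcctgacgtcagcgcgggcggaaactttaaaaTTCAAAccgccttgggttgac
Zwint promoter, chr10:72654596-72654895, plus strand: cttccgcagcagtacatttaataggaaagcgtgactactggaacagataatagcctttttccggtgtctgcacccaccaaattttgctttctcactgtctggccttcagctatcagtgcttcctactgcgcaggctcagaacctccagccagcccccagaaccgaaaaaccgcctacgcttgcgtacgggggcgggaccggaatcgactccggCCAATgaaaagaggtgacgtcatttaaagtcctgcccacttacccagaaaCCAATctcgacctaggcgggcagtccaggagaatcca
Tacc3 promoter, chr5:33657878-33658177, plus strand: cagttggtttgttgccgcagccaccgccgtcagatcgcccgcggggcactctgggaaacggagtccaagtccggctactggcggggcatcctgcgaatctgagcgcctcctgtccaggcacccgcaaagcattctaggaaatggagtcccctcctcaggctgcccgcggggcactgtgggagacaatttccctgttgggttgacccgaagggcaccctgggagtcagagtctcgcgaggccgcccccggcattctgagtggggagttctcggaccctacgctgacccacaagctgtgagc

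Reads on genes with both values numbered from 1328042 to 1498579 per library, and the mitosis and spindle genes held between 0.074% and 0.168% of them. Each library gave a median of 12 to 34.5 reads per member, so counting error is large for single genes. Chondrocyte markers were abundant in every library, with 25154 to 35871 reads of Col2a1, the gene of type II collagen, and 1838 to 2158 reads of the chondrocyte transcription factor Sox9. The 8 chondrocyte markers were summed to 48898 reads in wild type, 33808 in miR-26a KO, 36196 with the mimic and 34362 in Cart-miR-23clus KO. The osteoblast markers were summed to 51105 reads in wild type, 21566 in miR-26a KO, 26489 with the mimic and 9217 in Cart-miR-23clus KO. Of the 6 osteoblast markers, 5 passed the reads minimum given below, and Dmp1 had 4 reads or fewer in each library. The 8 macrophage markers were summed to 1053, 340, 681 and 1072 reads in the same order. Endothelial markers had 0 or 1 reads, erythroid markers were at 0, and skeletal muscle markers had 1 to 10 reads, all from Acta1, with the mimic values of Kdr and Myl1 not recovered.

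Wild-type chondrocytes had the lowest level of the mitosis and spindle genes. Their reads summed to 1109 in wild type, 2086 in miR-26a KO, 2310 with the mimic and 2231 in Cart-miR-23clus KO. As a rate these sums were 740.0, 1531, 1594 and 1680 RPM (reads-per-million), so the 3 modified cultures lay close together and wild type lay apart from them. On the TPM scale the sum in Cart-miR-23clus KO was 2.21 (95% interval 2.06 to 2.38) times that of wild type, and that in miR-26a KO was 2.07 (1.92 to 2.22) times. With the mimic it was 2.14 (1.99 to 2.30) times wild type but 1.03 (0.975 to 1.10) times miR-26a KO. Cart-miR-23clus KO was at 1.07 (1.01 to 1.14) times miR-26a KO. Intervals were computed from the reads by the exact Clopper-Pearson method. They hold counting error alone and describe these libraries rather than the genotypes, because there was 1 library per condition and no test between conditions could be made. All ratios to wild type share that 1 library and are not independent of each other. In RNA from whole cultures, fewer cycling cells and less mitotic RNA per cell cannot be told apart.

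**Figure D1:**
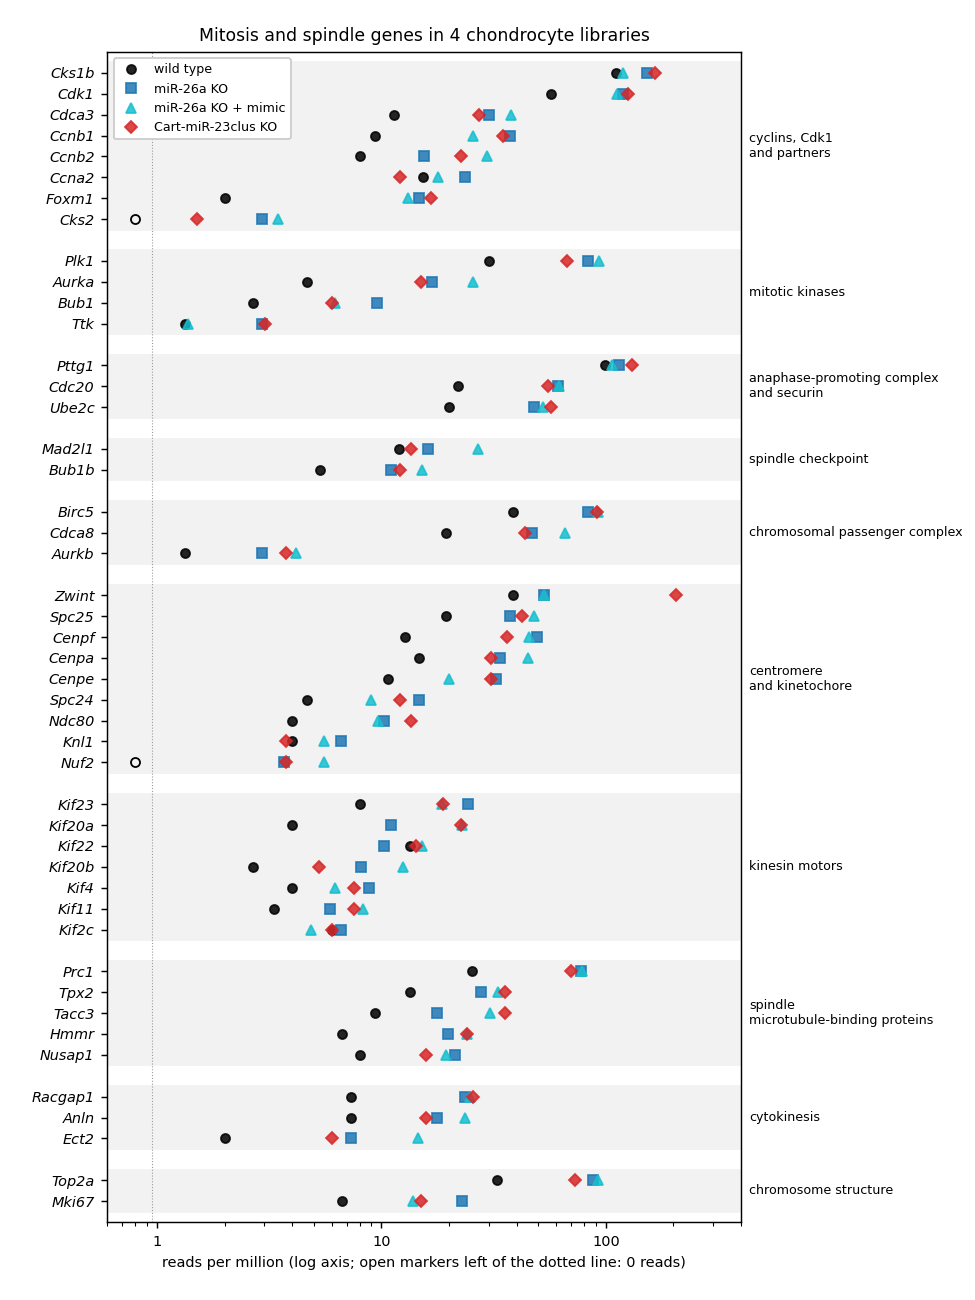
RPM of the 46 mitosis and spindle genes (rows, by role) in each library on a log axis, with open markers at the left edge for 0 reads. The wild-type marker is the leftmost for most genes, and Zwint in Cart-miR-23clus KO lies far to the right of its other 3 values.

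In total 42 of the 46 members had at least 20 reads summed over the 4 libraries, as did 11049 genes of the whole series, and counts of members refer to these. The 4 others are given as reads only. Nuf2, a subunit of the NDC80 complex, had 0, 5, 8 and 5 reads in wild type, miR-26a KO, the mimic library and Cart-miR-23clus KO. Cks2, a partner of Cdk1, had 0, 4, 5 and 2 reads, and 0 reads in wild type allow a level of up to 2.00 RPM, taking 3 reads as the limit. The checkpoint kinase Ttk had 2, 4, 2 and 4 reads, and Aurkb, the kinase of the chromosomal passenger complex, had 2, 4, 6 and 5.

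Wild type was the lowest of the 4 libraries for 38 of the 42 members, whereas it was the lowest for 29.7% of all genes above the minimum. The exceptions were Ccna2 and Knl1, which were lowest in Cart-miR-23clus KO, Kif22, which was lowest in miR-26a KO, and Kif2c, which was lowest with the mimic. The highest level was found in miR-26a KO for 12 members, with the mimic for 20 and in Cart-miR-23clus KO for 10, and in wild type for 0.

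Between Cart-miR-23clus KO and wild type, 32 members had a ratio above 2, beside 6.69% of all genes, and 0 had a ratio below 0.5, beside 6.09%. The interval of the ratio lay above 1 for 27 members, beside 10.9% of all genes, and below 1 for 0, beside 11.1%. The median of the log2 ratio, with 0.5 TPM added, was 1.110 over the members and -0.015 over all genes. Ratios ran from 0.766 for Ccna2 to 8.07 for Foxm1. Just above a ratio of 2 lay Cenpa at 2.05 (1.19 to 3.62) and Anln at 2.10 (0.969 to 4.83), and just below it lay Kif20b at 1.93 (0.490 to 8.98) and Nusap1 at 1.93 (0.905 to 4.30). Of the members, 10 are on a list that the study picked as higher in Cart-miR-23clus KO in both protein and mRNA. They are Anln, Hmmr, Kif20a, Mki67, Prc1, Spc24, Top2a, Tpx2, Ube2c and Zwint. The mRNA values of that list came from these libraries, so the 10 are not independent evidence of the direction in RNA. Its protein values, from mass spectrometry, were not used here. Among the 32 members above the minimum that are not on the list, 22 had a ratio above 2 and the median was 1.088.

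Between miR-26a KO and wild type, 30 members had a ratio above 2, beside 5.53% of all genes, and 0 had a ratio below 0.5, beside 5.29%. The interval lay above 1 for 27 members, beside 10.2%, and below 1 for 0, beside 7.8%. The median log2 ratio was 1.223, and 0.026 over all genes. Without the genes on the study's list, 21 of 32 members were above 2 and the median was 1.145. The lowest ratio was 0.769 for Kif22 and the highest was 7.32 for Foxm1. Bub1b at 2.06 (0.820 to 5.61) and Tpx2 at 2.09 (1.18 to 3.79) lay just above 2, and Spc25 at 1.93 (1.20 to 3.16) and Ccnb2 at 1.92 (0.903 to 4.29) just below. With the mimic, 31 members were above 2 against wild type, beside 5.74% of all genes, and 28 had an interval above 1, beside 9.65%. Marker genes differed between the same libraries. Summed, the chondrocyte markers of Cart-miR-23clus KO were at 0.774 (0.763 to 0.784) times wild type and those of miR-26a KO at 0.759 (0.749 to 0.770) times. The interval lay below 1 for 6 of the 8 in Cart-miR-23clus KO, with Matn1 lowest at 0.402 times wild type, and above 1 for 2, Comp at 1.70 and Matn3 at 1.38. In miR-26a KO it lay below 1 for 5, again with Matn1 lowest at 0.350, and above 1 for Comp. The 5 osteoblast markers above the minimum were all lower than wild type in each knockout, and the 8 macrophage markers were all lower in miR-26a KO, 7 of them with an interval below 1. In Cart-miR-23clus KO the interval lay above 1 for 2 macrophage markers, Csf1r and Adgre1, and included 1 for 6. Fabp4, the 1 adipocyte marker of 4 above the minimum, had 57, 66, 105 and 223 reads, while Adipoq had at most 9, Plin1 at most 1 and Cidec 0. Their part in the values of the mitosis genes was not tested.

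**Figure D2:**
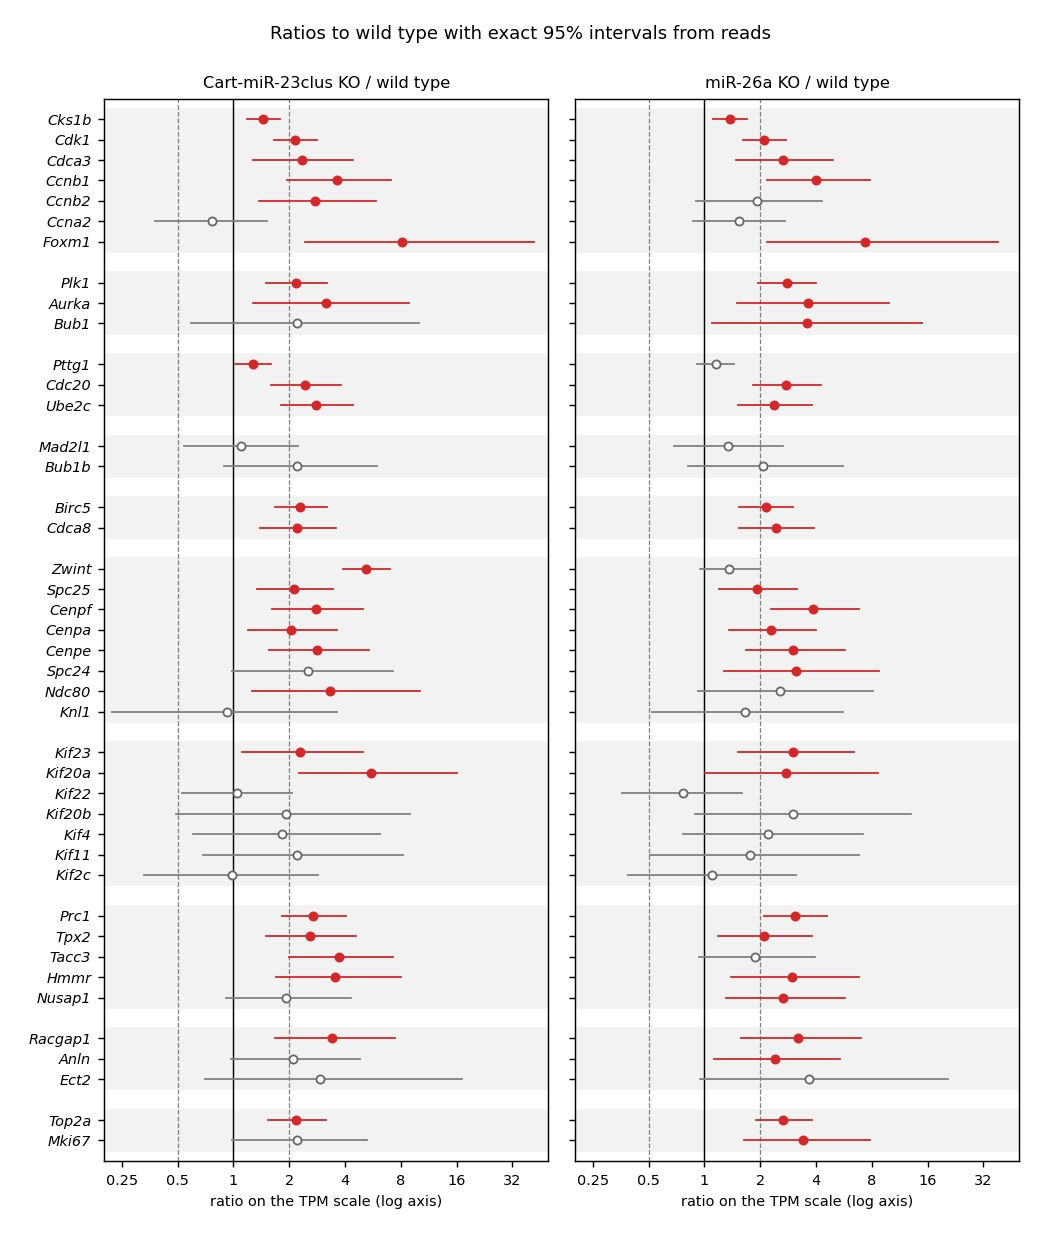
Ratio to wild type of the 42 members above the reads minimum in Cart-miR-23clus KO (left) and in miR-26a KO (right), on the TPM scale and a log axis, with exact 95% intervals as lines. Filled red points are the 27 members in each panel whose interval lies above 1, and dashed lines mark ratios of 0.5 and 2.

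The kinase Cdk1 and the cyclins that activate it bring cells into mitosis, and small Cks proteins bind the complex and help it to reach its substrates. Cks1b, which also serves in the degradation of p27, had 167 reads (188 TPM) in wild type, 208 (258 TPM) in miR-26a KO, 173 (200.1 TPM) with the mimic and 220 (273 TPM) in Cart-miR-23clus KO. Cdk1 had 85 reads (18.6 TPM) in wild type, 163 (39.2 TPM) in miR-26a KO, 163 (36.6 TPM) with the mimic and 166 (39.99 TPM) in Cart-miR-23clus KO. Cdca3, a trigger of mitotic entry, had 17 reads (21.4 TPM) in wild type, 41 (56.6 TPM) in miR-26a KO, 55 (70.99 TPM) with the mimic and 36 (49.9 TPM) in Cart-miR-23clus KO. Both knockouts thus lay above wild type for these genes, by the smallest ratio for Cks1b, at 1.45 (1.18 to 1.78) in Cart-miR-23clus KO and 1.37 (1.11 to 1.69) in miR-26a KO. Reads of Cks1b may not be separable from those of its retrogene Cks1brt, which is 95.07% identical over 304 bases, but only 1 to 3 reads were assigned to Cks1brt. For Cdk1 the ratios were 2.15 (1.65 to 2.83) and 2.11 (1.61 to 2.77), and for Cdca3 2.33 (1.28 to 4.43) and 2.65 (1.47 to 4.97).

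The cyclins differed from each other. Ccnb1, the main mitotic cyclin, had 14 reads in wild type, 51 in miR-26a KO, 37 with the mimic and 46 in Cart-miR-23clus KO, and Ccnb2 had 12, 21, 43 and 30. Ccna2, the cyclin of S phase and G2, had 23, 32, 26 and 16. Its ratio was 0.766 (0.378 to 1.51) in Cart-miR-23clus KO against wild type, so that the interval included 1 and the value lay below those of the B-type cyclins, at 3.62 (1.95 to 7.12) for Ccnb1 and 2.75 (1.37 to 5.90) for Ccnb2. Against miR-26a KO, Ccna2 was at 0.501 (0.257 to 0.941) in Cart-miR-23clus KO, the 1 member of that comparison with an interval below 1. Ccna2 overlaps the gene Exosc9 on the other strand. Foxm1, the transcription factor of this programme, had 3 reads in wild type and 20, 19 and 22 in the other libraries. Its ratios of 8.07 (2.43 to 42.1) and 7.32 (2.17 to 38.5) rest on those 3 reads.

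Polo-like kinase 1 (Plk1) and Aurora A (Aurka) mature the centrosomes and build the spindle, and Bub1 recruits checkpoint proteins to kinetochores. Plk1 had 45 reads (19.6 TPM) in wild type, 114 (54.5 TPM) in miR-26a KO, 135 (60.3 TPM) with the mimic and 89 (42.6 TPM) in Cart-miR-23clus KO. Aurka had 7 reads (3.60 TPM) in wild type, 23 (12.98 TPM) in miR-26a KO, 37 (19.5 TPM) with the mimic and 20 (11.3 TPM) in Cart-miR-23clus KO. Bub1 had 4 reads (1.12 TPM) in wild type, 13 (4.00 TPM) in miR-26a KO, 9 (2.58 TPM) with the mimic and 8 (2.46 TPM) in Cart-miR-23clus KO. Wild type was the lowest library for each of the 3 genes. The ratios for Plk1 were 2.18 (1.50 to 3.19) in Cart-miR-23clus KO and 2.78 (1.95 to 4.02) in miR-26a KO, and those for Aurka were 3.15 (1.28 to 8.80) and 3.61 (1.50 to 9.96). For Bub1 the interval excluded 1 in miR-26a KO, at 3.57 (1.10 to 15.03), and included it in Cart-miR-23clus KO, at 2.20 (0.590 to 9.99). The difference between the knockouts was itself within counting error, at 0.617 (0.222 to 1.61). Summed over the 4 mitotic kinases, Ttk included, the mimic library was at 1.11 (0.891 to 1.39) times miR-26a KO.

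Exit from mitosis is set by the anaphase-promoting complex (APC/C), for which Cdc20 is the activator and Ube2c the ubiquitin-conjugating enzyme, and by its substrate securin (Pttg1), which holds separase inactive. Pttg1 had 149 reads (192 TPM) in wild type, 156 (221 TPM) in miR-26a KO, 154 (204 TPM) with the mimic and 173 (246 TPM) in Cart-miR-23clus KO. Cdc20 had 33 reads (17.6 TPM) in wild type, 83 (48.7 TPM) in miR-26a KO, 90 (49.3 TPM) with the mimic and 73 (42.9 TPM) in Cart-miR-23clus KO. Ube2c had 30 reads (29.7 TPM) in wild type, 65 (70.7 TPM) in miR-26a KO, 76 (77.2 TPM) with the mimic and 76 (82.8 TPM) in Cart-miR-23clus KO. Cdc20 and Ube2c were thus more than 2 times as high in each knockout as in wild type, at 2.44 (1.59 to 3.79) and 2.79 (1.81 to 4.41) in Cart-miR-23clus KO and 2.76 (1.82 to 4.27) and 2.38 (1.52 to 3.80) in miR-26a KO. Securin differed little, at 1.28 (1.02 to 1.60) in Cart-miR-23clus KO and 1.15 (0.913 to 1.45) in miR-26a KO, although it gave more reads in wild type than any other member but Cks1b. Cdc20 and Ube2c overlap Elovl1 and Tnnc2 on the other strand.

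A list of the other APC/C genes held its subunits and the co-activator Fzr1. Of the 15 genes, 0 had a ratio above 2 in either knockout, which is near the 6.69% and 5.53% of all genes, and 0 had a ratio below 0.5. Their median log2 ratios were -0.111 in Cart-miR-23clus KO, against 0.022 in miR-26a KO. Anapc11, the RING subunit, had 380 reads in wild type, 427 in miR-26a KO, 417 with the mimic and 417 in Cart-miR-23clus KO, or 113, 139, 127 and 136 TPM. Anapc4, a scaffold subunit, had 157, 184, 159 and 159 reads, or 39.0, 50.2, 40.5 and 43.5 TPM. The 15 genes were summed to 1477, 1415, 1537 and 1368 reads, with a ratio of 1.02 (0.947 to 1.10) in Cart-miR-23clus KO and 1.05 (0.978 to 1.13) in miR-26a KO.

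The spindle checkpoint proteins Mad2l1 and Bub1b hold back Cdc20 until all kinetochores are attached. Mad2l1 had 18 reads (2.28 TPM) in wild type, 22 (3.06 TPM) in miR-26a KO, 39 (5.07 TPM) with the mimic and 18 (2.51 TPM) in Cart-miR-23clus KO. Bub1b had 8 reads (2.09 TPM) in wild type, 15 (4.30 TPM) in miR-26a KO, 22 (5.89 TPM) with the mimic and 16 (4.60 TPM) in Cart-miR-23clus KO. In the knockout libraries without mimic neither had an interval that excluded 1 against wild type, with Mad2l1 at 1.10 (0.540 to 2.24) in Cart-miR-23clus KO and 1.34 (0.687 to 2.65) in miR-26a KO. With the mimic both intervals lay above 1 against wild type, at 2.22 (1.24 to 4.13) for Mad2l1 and 2.82 (1.21 to 7.33) for Bub1b. Their summed level was highest there, at 1.54 (1.01 to 2.38) times miR-26a KO.

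In the chromosomal passenger complex, survivin (Birc5) and borealin (Cdca8) bring Aurora B to centromeres. Birc5 had 58 reads (58.6 TPM) in wild type, 113 (125 TPM) in miR-26a KO, 134 (139 TPM) with the mimic and 121 (135 TPM) in Cart-miR-23clus KO. Cdca8 had 29 reads (17.1 TPM) in wild type, 64 (41.4 TPM) in miR-26a KO, 95 (57.4 TPM) with the mimic and 58 (37.6 TPM) in Cart-miR-23clus KO. Both were lowest in wild type, with ratios of 2.30 (1.67 to 3.20) and 2.20 (1.39 to 3.57) in Cart-miR-23clus KO and 2.14 (1.55 to 2.99) and 2.42 (1.54 to 3.90) in miR-26a KO. Aurkb itself was too low for a ratio, as given above. Incenp, the scaffold of the complex and no member, had 16, 36, 40 and 40 reads.

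Among the genes of the kinetochore, the protein assembly that ties chromosomes to microtubules, Zwint stood apart. Zwint, which links the RZZ complex to the KNL1 scaffold, had 58 reads (30.3 TPM) in wild type, 72 (41.3 TPM) in miR-26a KO, 77 (41.2 TPM) with the mimic and 273 (157 TPM) in Cart-miR-23clus KO. Spc25, a subunit of the NDC80 complex that binds microtubules, had 29 reads (18.2 TPM) in wild type, 51 (35.1 TPM) in miR-26a KO, 69 (44.4 TPM) with the mimic and 56 (38.6 TPM) in Cart-miR-23clus KO. Cenpf, a large protein of the outer kinetochore, had 19 reads (1.63 TPM) in wild type, 67 (6.33 TPM) in miR-26a KO, 66 (5.82 TPM) with the mimic and 48 (4.54 TPM) in Cart-miR-23clus KO. Zwint in Cart-miR-23clus KO was thus at 5.18 (3.89 to 7.00) times wild type and 3.80 (2.92 to 5.00) times miR-26a KO, whereas miR-26a KO was at 1.36 (0.951 to 1.96) and the mimic library at 1.36 (0.956 to 1.95) times wild type. Zwint took 5.23% of the member reads in wild type (95% interval 4.00 to 6.71), 3.45% in miR-26a KO (2.71 to 4.33), 3.33% with the mimic (2.64 to 4.15) and 12.2% in Cart-miR-23clus KO (10.9 to 13.7). Without Zwint, the sum over the members in Cart-miR-23clus KO was 2.05 times wild type. Zwint is one of the genes on the study's list, so its position among the highest ratios is not independent evidence.

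Spc25 was at 2.13 (1.33 to 3.45) in Cart-miR-23clus KO and 1.93 (1.20 to 3.16) in miR-26a KO, and Cenpf at 2.78 (1.60 to 5.01) and 3.87 (2.30 to 6.83). The 3′ end of Cenpf holds a stretch of at least 95% identity to 27 other genes, so part of its reads may have been assigned elsewhere. The other members of the group included the centromeric histone Cenpa, with 22, 46, 65 and 41 reads, and the kinesin Cenpe, with 16, 44, 29 and 41. Ndc80 had 6, 14, 14 and 18 reads and Spc24 had 7, 20, 13 and 16, so that the subunits of the NDC80 complex were all lowest in wild type. Knl1, the scaffold itself, had 6, 9, 8 and 5 reads, with a ratio of 0.917 (0.222 to 3.61) in Cart-miR-23clus KO. Of the 8 kinetochore genes above the minimum, 7 were above 2 in Cart-miR-23clus KO and 5 were in miR-26a KO, beside 6.69% and 5.53% of all genes.

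Kinesin motors move along spindle microtubules and arrange them. Kif23, the motor of the centralspindlin complex, had 12 reads (18.2 TPM) in wild type, 33 (54.9 TPM) in miR-26a KO, 27 (41.96 TPM) with the mimic and 25 (41.7 TPM) in Cart-miR-23clus KO. Kif20a, which carries the passenger complex to the midzone, had 6 reads (1.83 TPM) in wild type, 15 (5.01 TPM) in miR-26a KO, 33 (10.3 TPM) with the mimic and 30 (10.1 TPM) in Cart-miR-23clus KO. Kif22, a motor that binds chromosome arms, had 20 reads (36.96 TPM) in wild type, 14 (28.4 TPM) in miR-26a KO, 22 (41.7 TPM) with the mimic and 19 (38.7 TPM) in Cart-miR-23clus KO. Kif22 was not lowest in wild type, and its ratios were 1.05 (0.528 to 2.06) in Cart-miR-23clus KO and 0.769 (0.359 to 1.60) in miR-26a KO. Kif20a was at 5.50 (2.25 to 16.2) and 2.75 (1.01 to 8.64), and was the 1 member above 2 with the mimic against miR-26a KO, at 2.06 (1.09 to 4.07). Its last 300 bases lie within the gene Cdc23 on the other strand, which had 67, 49, 68 and 66 reads, and the counting is not stated to use strand. Of the 7 kinesins, 3 were above 2 in Cart-miR-23clus KO and 4 were in miR-26a KO, beside 6.69% and 5.53% of all genes. An interval above 1 was found for 2 in each, beside 10.9% and 10.2%. Kif2c, a depolymerase with 9, 9, 7 and 8 reads, had an interval that included 1 in every comparison.

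A further group of proteins bundles or nucleates spindle microtubules. Prc1, which crosslinks the central spindle, had 38 reads (12.02 TPM) in wild type, 106 (36.8 TPM) in miR-26a KO, 114 (37.00 TPM) with the mimic and 93 (32.4 TPM) in Cart-miR-23clus KO. Tpx2, the activator of Aurora A on the spindle, had 20 reads (5.50 TPM) in wild type, 38 (11.5 TPM) in miR-26a KO, 48 (13.5 TPM) with the mimic and 47 (14.2 TPM) in Cart-miR-23clus KO. Tacc3, which bridges kinetochore fibres, had 14 reads (5.02 TPM) in wild type, 24 (9.45 TPM) in miR-26a KO, 44 (16.2 TPM) with the mimic and 47 (18.6 TPM) in Cart-miR-23clus KO. Prc1 was at 2.69 (1.83 to 4.04) in Cart-miR-23clus KO and 3.06 (2.10 to 4.56) in miR-26a KO, and Tpx2 at 2.59 (1.50 to 4.61) and 2.09 (1.18 to 3.79). Against miR-26a KO, Tacc3 was at 1.96 (1.18 to 3.36) in Cart-miR-23clus KO and at 1.71 (1.02 to 2.94) with the mimic, so it was higher in both. Hmmr had 10, 27, 35 and 32 reads and Nusap1 had 12, 29, 28 and 21. Over the 5 genes the summed ratio was 2.81 (2.21 to 3.61) in Cart-miR-23clus KO and 2.62 (2.05 to 3.37) in miR-26a KO. Prc1, Tacc3 and Nusap1 overlap protein-coding genes on the other strand, as do 9 members in all. Among the 33 members above the minimum without such an overlap, 26 were above 2 in Cart-miR-23clus KO and 23 were in miR-26a KO, beside 6.69% and 5.53% of all genes.

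Cytokinesis is directed by Racgap1, the partner of Kif23 in centralspindlin, by its binding partner Ect2 and by the scaffold anillin (Anln). Racgap1 had 11 reads (3.45 TPM) in wild type, 32 (11.02 TPM) in miR-26a KO, 36 (11.6 TPM) with the mimic and 34 (11.7 TPM) in Cart-miR-23clus KO. Anln had 11 reads (2.29 TPM) in wild type, 24 (5.48 TPM) in miR-26a KO, 34 (7.25 TPM) with the mimic and 21 (4.81 TPM) in Cart-miR-23clus KO. Ect2 had 3 reads (0.703 TPM) in wild type, 10 (2.57 TPM) in miR-26a KO, 21 (5.05 TPM) with the mimic and 8 (2.06 TPM) in Cart-miR-23clus KO. All 3 were lowest in wild type, and Racgap1 was at 3.40 (1.68 to 7.45) in Cart-miR-23clus KO and 3.19 (1.57 to 7.03) in miR-26a KO. Anln was at 2.10 (0.969 to 4.83) and 2.40 (1.13 to 5.42), and Ect2 at 2.94 (0.705 to 17.2) and 3.66 (0.943 to 20.7). The ratio for Ect2 with the mimic against wild type was 7.18 (2.15 to 37.6) and rests on 3 wild-type reads.

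Top2a, which untangles sister chromatids, and Mki67, the Ki-67 protein that coats mitotic chromosomes, are common proliferation markers. Top2a had 49 reads (8.98 TPM) in wild type, 119 (23.96 TPM) in miR-26a KO, 133 (25.02 TPM) with the mimic and 97 (19.6 TPM) in Cart-miR-23clus KO. Mki67 had 10 reads (0.951 TPM) in wild type, 31 (3.24 TPM) in miR-26a KO, 20 (1.95 TPM) with the mimic and 20 (2.10 TPM) in Cart-miR-23clus KO. The ratios for Top2a were 2.18 (1.53 to 3.14) in Cart-miR-23clus KO and 2.67 (1.90 to 3.80) in miR-26a KO. For Mki67 the interval excluded 1 in miR-26a KO, at 3.40 (1.63 to 7.79), but not in Cart-miR-23clus KO, at 2.20 (0.984 to 5.27).

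The mimic returns miR-26a to chondrocytes that lack it, and the comparison asks whether the mitosis genes then move back. Of the 42 members, 24 were higher and 18 lower with the mimic than in miR-26a KO, with a median log2 ratio of 0.065, beside -0.006 over all genes. A ratio above 2 was found for 1 member, Kif20a, beside 3.58% of all genes, and a ratio below 0.5 for 0, beside 3.19%. The interval lay above 1 for 3 members, beside 4.74% of all genes, and below 1 for 1, beside 4.62%. The 3 were Kif20a, Ccnb2 at 1.91 (1.11 to 3.39) and Tacc3. The 1 below was Cks1b, with 208 reads without and 173 with the mimic, at 0.777 (0.631 to 0.955). The shares of members called thus lie near those of all genes. For Mad2l1 and Zwint, the members above the minimum with a miR-26a match, the ratios were 1.66 (0.958 to 2.93) and 0.999 (0.715 to 1.40). Cks2 had 4 reads without and 5 with the mimic.

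Set directly against miR-26a KO, Cart-miR-23clus KO had 18 members higher and 24 lower, with a median log2 ratio of -0.143, beside -0.041 over all genes. A ratio above 2 was found for 2 members, Zwint and Kif20a, beside 6.06% of all genes, and below 0.5 for 0, beside 5.09%. Zwint and Kif20a are both on the study's list, and 0 of the 32 members not on it had a ratio above 2. The interval lay above 1 for 3 members, Zwint, Kif20a and Tacc3, beside 7.64%, and below 1 for 1, Ccna2, beside 9.81%. The remaining 38 members had an interval that included 1, which at these read numbers leaves room for sizeable differences, as in Plk1 at 0.783 (0.586 to 1.04) and Ccnb1 at 0.904 (0.594 to 1.37).

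**Figure D3:**
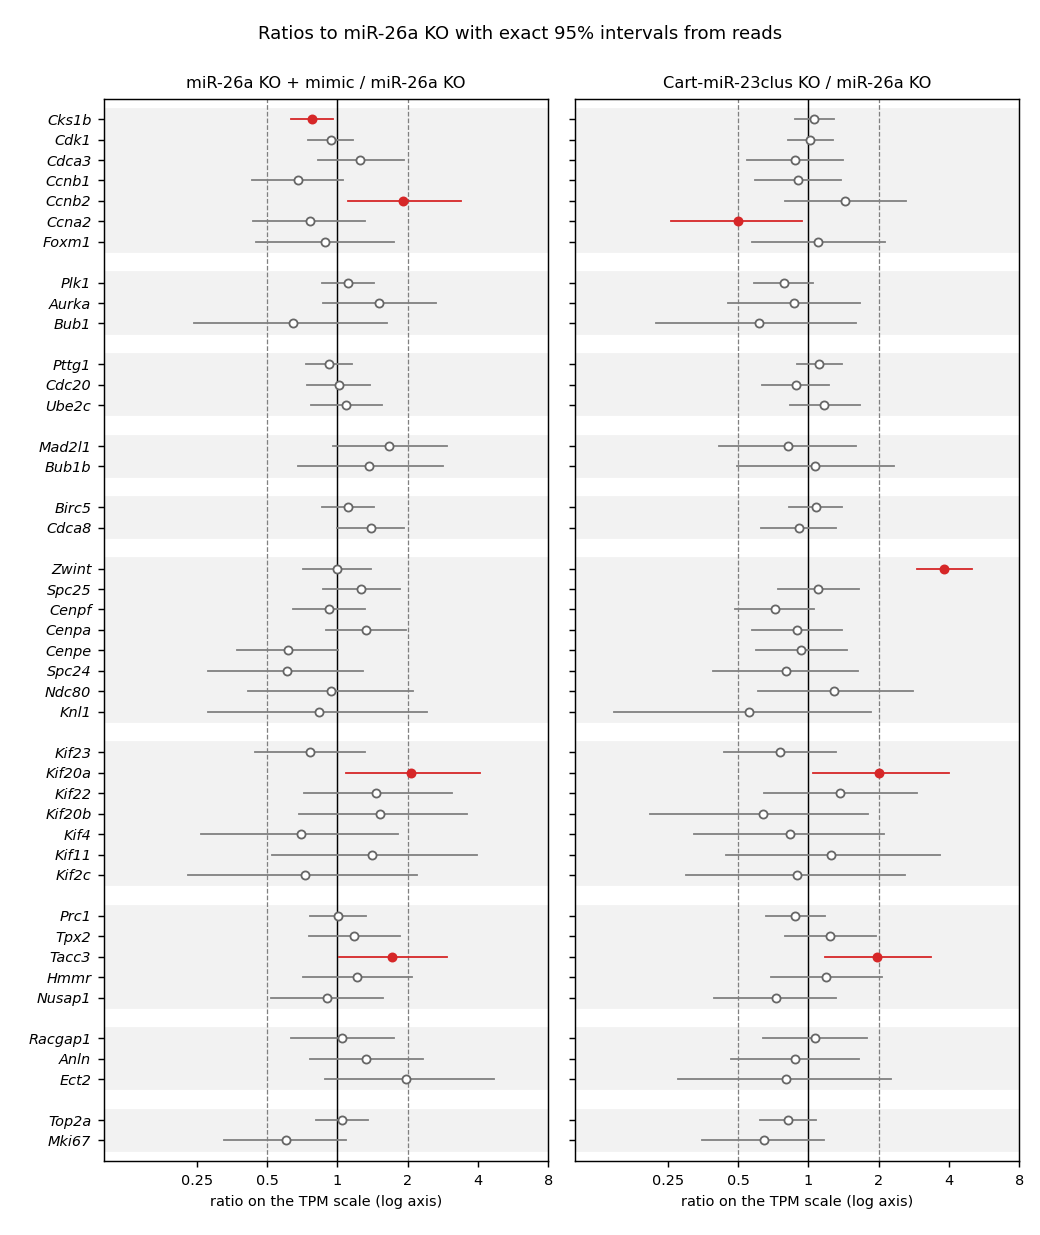
Ratio to miR-26a KO of the 42 members above the reads minimum with the mimic (left) and in Cart-miR-23clus KO (right), on the TPM scale and a log axis, with exact 95% intervals as lines. Points lie on both sides of 1, filled red points mark the 4 members in each panel whose interval excludes 1, and Zwint stands apart on the right.

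Other cell cycle genes were listed to see how far the difference extends. Of 52 further mitosis genes, 51 were found and 42 passed the minimum, with a median log2 ratio of 0.907 in Cart-miR-23clus KO, against 0.704 in miR-26a KO. Of these, 24 and 18 were above 2, beside 6.69% and 5.53% of all genes. In miR-26a KO 1 was below 0.5, Ccnf, at 0.471 (0.0785 to 2.06) from 3 reads against 7. The condensin subunit Smc4 had 120, 179, 140 and 175 reads (26.6, 43.6, 31.9 and 42.7 TPM), and the kinetochore gene Cenpw had 69, 68, 103 and 73 (15.9, 17.3, 24.4 and 18.6 TPM). The kinase Nek6 had 51, 48, 59 and 126 (4.72, 4.88, 5.61 and 12.8 TPM). Smc4 lay above wild type in both knockouts, Nek6 was high in Cart-miR-23clus KO, and Cenpw was high with the mimic. Nek6 is on the study's list of genes higher in Cart-miR-23clus KO, so its ratio is not independent evidence. The summed ratio of these genes was 1.91 (1.74 to 2.10) in Cart-miR-23clus KO and 1.71 (1.56 to 1.89) in miR-26a KO.

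S phase genes differed less. Their median log2 ratios were 0.594 in Cart-miR-23clus KO, against 0.457 in miR-26a KO, over 23 genes, and their sums were 1.53 (1.37 to 1.70) and 1.41 (1.26 to 1.57) times wild type. The DNA ligase Lig1 had 80, 72, 110 and 113 reads (23.9, 23.6, 33.7 and 37.2 TPM), and Rrm2, which makes deoxyribonucleotides, had 30, 68, 84 and 78 (13.1, 32.6, 37.6 and 37.5 TPM). Rrm2 is also on the study's list. Within each library, the mitosis and spindle members made up 65.9% of the reads of both lists together in wild type (95% interval 63.5 to 68.1). They made up 73.9% in miR-26a KO (72.2 to 75.5), 72.7% with the mimic (71.2 to 74.3) and 73.7% in Cart-miR-23clus KO (72.1 to 75.2). The intervals of the 3 modified cultures did not overlap that of wild type, so between these libraries the members differed more than the S phase genes.

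Cohesin holds sister chromatids together and is expressed through the cell cycle. Its genes had median log2 ratios of -0.080 in Cart-miR-23clus KO, against 0.029 in miR-26a KO. A ratio above 2 was found for 0 of 10, which is near the 6.69% and 5.53% of all genes. Smc1a had 168, 209, 181 and 199 reads (88.2, 120.5, 97.5 and 115 TPM) and Rad21 had 164, 142, 146 and 157 (39.7, 37.7, 36.3 and 41.8 TPM). All 10 were lower with the mimic than in miR-26a KO, beside 5608 of 11049 genes, and the sum was at 0.857 (0.776 to 0.946). The interval lay below 1 for 2 of the 10, beside 4.62% of all genes, and included 1 for 8.

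**Figure D4:**
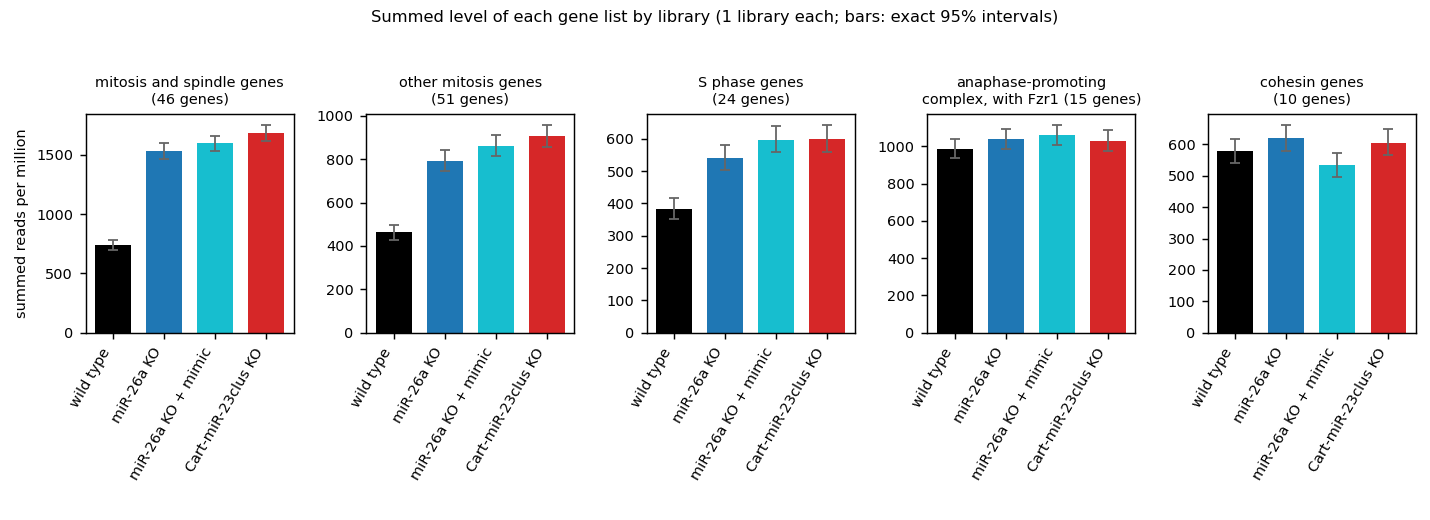
Summed RPM of 5 gene lists in each library, as bars from 0 with exact 95% intervals for counting error. The wild-type bar is the lowest for the mitosis and spindle genes (740.0 against 1531 to 1680), for the other mitosis genes and for the S phase genes, and is near the others for the anaphase-promoting complex genes (subunits and Fzr1) and for cohesin.

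The promoters of the members shared motifs that played no part in their choice. RefSeq promoters were matched for 40 of the 46 members, with 42 promoters. A CHR, sought as TTTGAA or TTCGAA on both strands, was found in 32 of the 42, or 76.2%, beside 19.2% of 32851 promoters of the same length and 13.7% of 10780 promoters of genes above the reads minimum. Within 100 bases before to 50 after the start, 73.8% held a CHR, beside 8.59% of all promoters. A CCAAT box was found in 73.8%, beside 37.4% of all promoters, at least 2 of them in 54.8%, beside 11.7%, and both motifs in 64.3%, beside 7.53%. The Top2a and Plk1 promoters shown above are of that kind. For 5 members, Cdca3, Cdca8, Kif2c, Kif4 and Pttg1, the window lies wholly inside the gene as annotated by GENCODE, so it starts from an internal start. The members were chosen by symbol and share a function, so these shares describe them and are not a test.

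Members with and without a CHR had similar ratios. The 29 members above the minimum with a CHR had median log2 ratios of 1.084 for Cart-miR-23clus KO and 1.237 for miR-26a KO, both against wild type, and of 0.127 with the mimic against miR-26a KO. For the 8 without (Birc5, Ccnb1, Cenpe, Mad2l1, Nusap1, Pttg1, Tacc3 and Zwint) the medians were 1.242, 0.971 and -0.059. The absence of these letters from a window says nothing about the binding of a factor.

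Matches to the seeds were not frequent among the members. The annotated 3′ UTRs of the 46 members had a median length of 634 bases, beside 1271.5 bases over 10352 genes above the reads minimum. A match to miR-26a was present in 6.52% of members, beside 12.3% of genes, and to miR-23 in 8.70% (Ube2c, Mad2l1, Birc5 and Cenpf), beside 17.5%. A match to miR-27 was present in 13.0% (Cdk1, Aurka, Mad2l1, Spc24, Zwint and Nusap1), beside 18.1%, and to miR-24 in 17.4% (Cdk1, Foxm1, Cdca3, Plk1, Mad2l1, Birc5, Zwint and Tpx2), beside 19.8%. Mad2l1, whose annotated 3′ UTR has 6802 bases, held matches to all 4 seeds. In Cart-miR-23clus KO against wild type, the median log2 ratio was 1.217 for members with a miR-23 match and 1.097 without. It was 1.166 with and 1.110 without a miR-27 match, and 1.198 with and 1.087 without a miR-24 match. For the ratio of miR-26a KO to wild type, the median was 0.399 for the 2 members above the minimum with a miR-26a match, Mad2l1 and Zwint, and 1.241 for those without.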

How the data were processed

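RNA from 4 cultures of femoral head chondrocytes, 1 library each, was sequenced as 3′ tags (QuantSeq 3′ FWD). The authors deposited estimated counts per gene for 3 libraries and TPM (transcripts-per-million) for all 4, on mm10 (GRCm38.p6); the aligner, counter and strand setting are not given in the sources used here. Reads of the mimic library were recovered from its TPM through each gene's reads per TPM in the other libraries (14429 of 14429 genes whole within 0.01, 588 genes not recovered). Reads on genes with both values numbered 1498579 in wild type, 1362870 in miR-26a KO, 1449246 with the mimic and 1328042 in Cart-miR-23clus KO. A floor of 3 reads is then 2.00 to 2.26 RPM.

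Ratios were taken on the TPM scale with exact Clopper-Pearson 95% intervals on reads for genes with at least 20 reads summed over the libraries. Log2 ratios had 0.5 TPM added. Conditions were not tested against each other, since each had 1 library. The procedure was also run on simulated counts of Cart-miR-23clus KO against wild type, scaled by total reads. There 96.3% of the intervals held the true ratio. A ratio above 2 was found for 96% of raised and 2.22% of unchanged genes, and one below 0.5 for 84% of lowered genes. In each role group the 3 members with most reads are given in full, with 2 or 3 genes from each further list; members nearest to a ratio of 2, members with an interval against the median, and members under 20 reads were also named. The members and the lists were chosen with earlier results of these data known. Promoters and miRNAs were taken from RefSeq tables, 3′ UTRs from GENCODE. Alternatives changed the reads minimum, pseudocount, scaling (edgeR 4.0.16 TMM, DESeq2 1.42.0 size factors, CPM), fold, interval level, members and reference library. Intervals came from scipy 1.17.1 and tables from pandas 2.3.3 and numpy 2.4.6 under Python 3.11.15, scaling from R 4.3.3, and plots from matplotlib 3.10.9.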

Additional observations from a re-analysis of the deposited data

How the results depend on the processing

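No paired analysis was possible because there was 1 library per condition, and for the same reason no library could be left out. Of 103 alternative values, 78 stayed close to the main value, 23 moved further from it and 2 turned direction. When both libraries compared had to hold 20 reads of a gene, 12 of 14 members were above 2 in Cart-miR-23clus KO against wild type, beside 2.06% of all genes, and 10 of 15 in miR-26a KO, beside 1.59%, where the median log2 ratio was 1.091. With at least 100 reads summed, these counts were 20 and 16 of 22, beside 2.81% and 2.43%, with a median of 1.251 in Cart-miR-23clus KO. These minimums leave fewer members. With 1 TPM added the median in miR-26a KO was 1.090. Without the genes on the study's list the summed ratio in Cart-miR-23clus KO was 1.931. In alternatives chosen after seeing the data, it was 2.051 without Zwint and 2.627 without the 4 members with most reads in wild type (Cks1b, Pttg1, Cdk1 and Birc5), where miR-26a KO was at 2.443. With miR-26a KO as the reference, Cart-miR-23clus KO had 2 members above 2, beside 6.06% of all genes, a median of -0.143 and a summed ratio of 1.072. With the mimic library as the reference it had 1 member above 2, beside 551 of 11049 genes, a median of -0.083 and a summed ratio of 1.036. Both medians turned direction, so the higher level in Cart-miR-23clus KO rests on the 1 wild-type library.

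With the mimic against miR-26a KO, 1 member was below 0.5 without a reads minimum. It was Ttk, with 4 reads without and 2 with the mimic, and the share of all genes was not computed for that setting. The count above 2 was 0 under the 20-read and 100-read minimums, beside 0.197% and 0.528% of all genes, and without the study's list. At a 1.5-fold limit 7 members were higher, beside 9.34% of all genes, and 4 lower, beside 9.47%. At a 99% level 0 intervals lay above 1, beside 1.76% of all genes, and 0 below, beside 1.8%. Against wild type, 24 members had an interval above 1 at that level in each knockout, beside 6.59% of all genes for Cart-miR-23clus KO and 5.92% for miR-26a KO. Scaling by CPM, TMM or DESeq2 size factors left 32 members above 2 in Cart-miR-23clus KO and 30 for miR-26a KO. The shares of all genes were not computed under these scalings, and on the TPM scale they were 6.69% and 5.53%. With 12 to 34.5 reads for the median member, depth limits what can be said of single genes.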

Other observations

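Genes of the G1 phase did not share the higher level of the mitosis and S phase genes in Cart-miR-23clus KO. The 7 G1 cyclins and Cdks were summed to 6234 reads in wild type, 6118 in miR-26a KO, 6142 with the mimic and 4574 in Cart-miR-23clus KO, and the last was at 0.808 times wild type (95% interval 0.777 to 0.839). miR-26a KO was at 1.08 times (1.04 to 1.12), mostly through Ccnd2, with 4404 reads against 4256. By gene, 3 of the 7 were higher and 4 lower there, with a median ratio of 0.980. Cyclin D1 (Ccnd1), which drives entry into the cycle, had 1276, 1139, 1305 and 538 reads, at 0.464 times wild type in Cart-miR-23clus KO (0.419 to 0.514). Cdk6, its kinase partner, had 209, 109, 166 and 81 reads, so it was lower than wild type in both knockouts.

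The 7 Cdk inhibitors were summed to 1533, 1350, 1412 and 917 reads, at 0.659 times wild type in Cart-miR-23clus KO (0.606 to 0.715) and 0.967 times in miR-26a KO. Most of these reads came from Cdkn1a, which encodes p21 and had 1037, 849, 921 and 534 reads. By gene, 4 of the 7 inhibitors were higher and 3 lower than wild type in each knockout, with a median ratio of 1.06 in Cart-miR-23clus KO, against 1.34 in miR-26a KO. In Cart-miR-23clus KO the interval lay below 1 for 3, Cdkn1a, Cdkn1c and Cdkn2a, beside 11.1% of all genes, and above 1 for 0, beside 10.9%. In miR-26a KO it lay above 1 for 2, Cdkn2a at 1.47 (1.19 to 1.83) and Cdkn2d at 1.70 (1.18 to 2.47), beside 10.2%. There it lay below 1 for 2, Cdkn1a and Cdkn1c, beside 7.8%. Cdkn1c, which encodes p57, had 87, 12, 8 and 46 reads and was at 0.152 times wild type in miR-26a KO (0.0754 to 0.278). A list of Rb family, MuvB, E2F and B-Myb genes, most of which encode subunits of the DREAM complex, was summed to 715, 693, 733 and 672 reads, with ratios to wild type of 1.04 for Cart-miR-23clus KO and 1.06 for miR-26a KO. Rbbp4 gave 555 of the wild-type reads of this list. In Cart-miR-23clus KO, the interval against wild type included 1 for 8 of the 10 genes of this list above the reads minimum. It lay below 1 for 1, Rb1 at 0.506 times (0.267 to 0.921), beside 11.1% of all genes. It lay above 1 for 1, Rbl2 at 1.76 times (1.24 to 2.51), beside 10.9%. Tubulins, the subunits of microtubules, had 8036, 7518, 7884 and 7699 reads, at 1.06 and 1.03 times. In Cart-miR-23clus KO the interval lay above 1 for 3 of the 9 tubulins, beside 10.9% of all genes, highest for Tuba1c at 2.08 (1.83 to 2.37). It lay below 1 for 3, beside 11.1%, lowest for Tubb2b at 0.770 (0.711 to 0.833).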
